A study of Homo sapiens with 15 samples.

Results

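IL32, IL23A and LIF are 3 secreted cytokine genes, described here across 4 groups of SW480 cells. They are 3 of 57905 genes listed in the deposited table, and each symbol occurs in a single row: IL32 is ENSG00000008517, IL23A is ENSG00000110944 and LIF is ENSG00000128342. The genes were picked by name with their levels in these libraries already known, so their levels and fold changes are a description and carry no p-value.

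SW480 cells come from a human colorectal cancer, and their labels describe them as intestinal epithelial cells. All groups grew in DMEM with fetal bovine serum. The group PINT shRNA1+LPS carried a lentiviral short hairpin RNA against PINT and was exposed to lipopolysaccharide (LPS, a Gram-negative cell wall component) at 1 µg/ml for 4 h, and the group PINT shRNA1 carried the hairpin without LPS. The LPS group was exposed in the same way without a hairpin, and the control was wild-type cells given PBS for 4 h. Each group is represented by 3 libraries. For PINT shRNA1 the labels give 2 samples per RNA number while the table has 1 column for it, and what that column combines is not given in the sources used here. No group with a non-targeting hairpin is among the labels used here, so an effect of the virus or of deriving a stable line cannot be told apart from that of the hairpin sequence. The labels do not say whether replicates are separate cultures, so the errors measure only the spread between these libraries.

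IL32 encodes interleukin-32, a proinflammatory cytokine with no counterpart in mice. No classical receptor chain is established for it, and the protease PRTN3 and the integrin of ITGAV and ITGB3 are described as binding partners. IL23A encodes the p19 subunit of interleukin-23, which is secreted as a functional cytokine when paired with the p40 subunit from IL12B and is sensed by lymphocytes through IL12RB1 and IL23R. LIF encodes leukemia inhibitory factor of the interleukin-6 family, which binds LIFR together with gp130 (IL6ST) and signals through JAK1 and STAT3, with SOCS3 as feedback inhibitor. IL32 and IL23A are known as targets of NF-kB, the factor that LPS activates through its receptor TLR4.

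The promoters of the pair with a RefSeq window are shown because LPS is the stimulus and NF-kB its textbook mediator. Each window runs from 250 bases before to 50 bases after an annotated start, on the plus strand of GRCh38.p14. IL32 has a window at chr16:3065153-3065452 and another at chr16:3065534-3065833, and IL23A has a window at chr12:56338634-56338933. Capitals mark matches to the 10-letter NF-kB consensus on either strand.
IL32, upstream start: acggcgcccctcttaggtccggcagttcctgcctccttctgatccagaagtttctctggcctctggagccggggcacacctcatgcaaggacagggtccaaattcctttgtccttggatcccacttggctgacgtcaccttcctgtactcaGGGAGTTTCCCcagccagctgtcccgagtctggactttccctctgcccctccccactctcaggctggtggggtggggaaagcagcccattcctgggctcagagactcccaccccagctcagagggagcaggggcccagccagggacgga
IL32, downstream start: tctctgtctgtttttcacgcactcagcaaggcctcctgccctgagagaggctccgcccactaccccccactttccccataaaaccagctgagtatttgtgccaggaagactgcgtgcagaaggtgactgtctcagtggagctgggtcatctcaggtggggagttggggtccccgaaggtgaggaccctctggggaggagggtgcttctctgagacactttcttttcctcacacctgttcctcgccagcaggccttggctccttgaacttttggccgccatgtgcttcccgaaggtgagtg
IL23A: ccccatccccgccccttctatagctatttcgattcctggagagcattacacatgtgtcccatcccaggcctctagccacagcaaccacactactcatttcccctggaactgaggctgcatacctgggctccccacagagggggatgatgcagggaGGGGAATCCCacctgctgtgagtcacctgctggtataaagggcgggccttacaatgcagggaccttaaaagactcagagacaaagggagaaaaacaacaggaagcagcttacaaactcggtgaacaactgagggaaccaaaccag
The upstream IL32 window holds 2 overlapping matches, on opposite strands, that together cover bases -99 to -89 from the start. The IL23A window holds a match at -95 to -86 that reads as a match on both strands. No NF-kB consensus match lies in the downstream IL32 window. Of 35116 RefSeq windows of the same length, 11.3% hold such a match. Searches on both strands also found TGACGTCA (a cyclic AMP response element) in the upstream IL32 window at -121 to -114, a motif in 1.85% of all windows, and TGANTCA (an AP-1 element) in the IL23A window at -77 to -71, a motif in 7.71%. TATAAA was found in the IL23A window at -62 to -57 and in 11.5% of all windows, while TTCNNNGAA, a STAT element found in 7.66%, was in none of the 3 windows. No motif overlapped another apart from the pair of NF-kB matches of IL32.

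Levels are given as the authors' FPKM, fragments per kilobase of transcript scaled to the mapped fragments of a library, and can be compared between genes because they are per length. FPKM totals were 409248 to 421487 for a library, so total counts are unknown. Depth relative to control replicate 1, recovered from the ratios of low values, was 1.3 to 1.51 in PINT shRNA1+LPS, 0.914 to 1.05 in PINT shRNA1, 0.848 to 0.858 in LPS and 0.809 to 1 in control. Genes above 0 FPKM numbered 30725 to 31961 in hairpin-labelled libraries and 27078 to 28430 in unlabelled ones. PINT shRNA1 replicate 2 had 30898 at a depth of 0.914, and control replicate 1 had 28430 at a depth of 1. The part of this split in the hairpin comparisons was not tested. Libraries of the same group correlated at 0.982 to 0.991 over tested genes. The hairpin's target went against the labels: LINC-PINT averaged 3.87 ± 0.289 FPKM in PINT shRNA1+LPS and 5.05 ± 0.436 in PINT shRNA1, against 2.38 ± 0.457 in LPS and 2.65 ± 0.202 in control (SD, n = 3). The libraries labelled with the hairpin are therefore named only by their labels, and nothing below shows what less PINT does. Of 8 epithelial markers 7 passed the low-value filter, and CDX1 was at 0 in every library. Their summed level was 1550 to 1610 FPKM in PINT shRNA1+LPS, 1440 to 1540 in PINT shRNA1, 2360 to 2410 in LPS and 2340 to 2670 in control. The summed level of 11 leukocyte markers, which include the main sources of interleukins in tissue, stayed between 2.9 and 5 FPKM in all 12 libraries, and that of 7 fibroblast and endothelial markers between 0.772 and 1.5 FPKM.

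IL32 was the most abundant of the 3 cytokine genes and stood at a different level in each group. It was at 46.9, 47.4 and 47.5 FPKM in PINT shRNA1+LPS, at 39, 43.4 and 44.5 in PINT shRNA1, at 33.8, 32.5 and 31.3 in LPS and at 24.5, 25.5 and 24.2 in control. No library of any group reached into the range of another, with PINT shRNA1+LPS highest, then PINT shRNA1, then LPS, then control. How many tested genes kept all 4 groups apart was not counted. Separation by hairpin label was common, as 25.6% of tested genes were higher without overlap in PINT shRNA1 than in control. The 3 libraries of PINT shRNA1+LPS lay within an SD of 0.323 FPKM, and those of PINT shRNA1 were the most spread, with an SD of 2.92 and replicate 1 lowest.

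IL23A and LIF shared the highest group, LPS, and the lowest, PINT shRNA1, and differed in the order of the groups between. IL23A was at 12, 12.7 and 12.6 FPKM in PINT shRNA1+LPS, at 8.14, 8.55 and 9.65 in PINT shRNA1, at 14.9, 17 and 16.5 in LPS and at 12, 10.1 and 10.5 in control. Its middle groups, PINT shRNA1+LPS and control, overlapped, because control replicate 1 lay within the range of the hairpin-labelled libraries under LPS. LIF was at 13.9, 13.5 and 13.3 FPKM in PINT shRNA1+LPS, at 11.1, 11.4 and 11.9 in PINT shRNA1, at 17.4, 17.7 and 16.3 in LPS and at 15.6, 16.5 and 14.1 in control. For LIF the upper groups, LPS and control, overlapped in that LPS replicate 3 was below control replicate 2, while the other neighbouring groups did not.

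**Figure D1:**
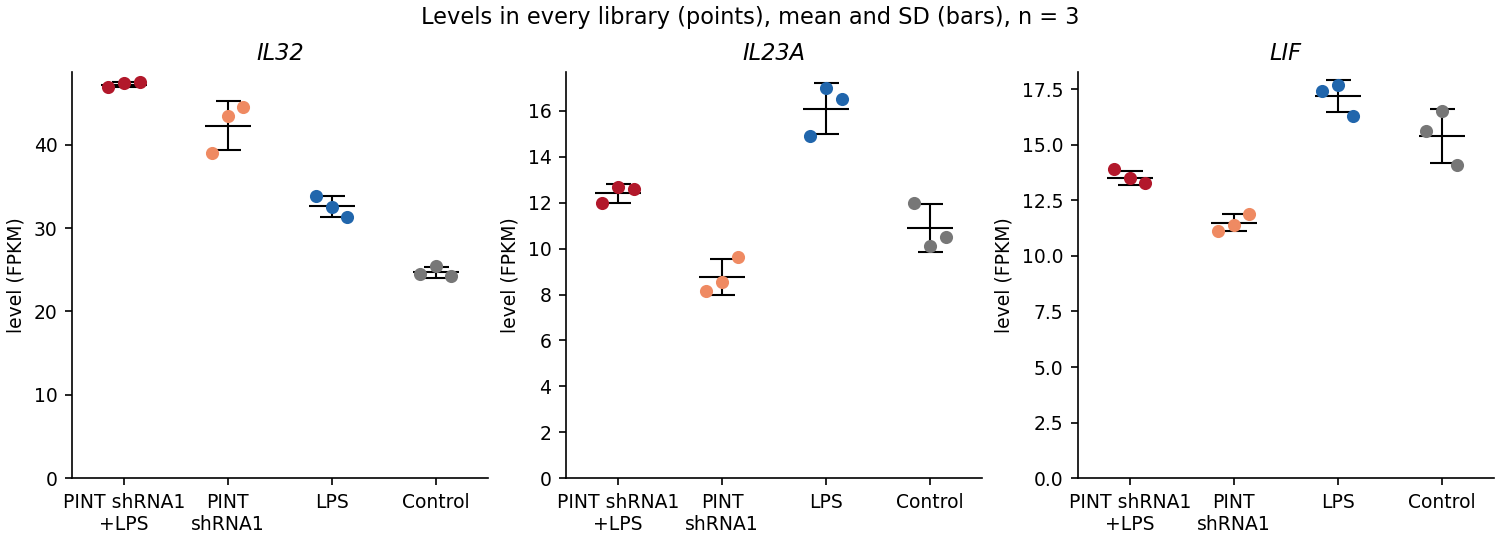
Levels of IL32, IL23A and LIF in FPKM (vertical axes from 0) in each of the 12 libraries, with 3 points a group and black bars for mean and SD. IL32 is highest in PINT shRNA1+LPS, while IL23A and LIF are highest in LPS and lowest in PINT shRNA1.

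Relative to other cytokine genes, all 3 were well expressed. In control, IL32 averaged 24.7 ± 0.677 FPKM, IL23A 10.9 ± 1.03 and LIF 15.4 ± 1.22 (SD, n = 3). Of 47 other interleukin and gp130-family ligand genes in the table, none had a higher control mean than IL32 or LIF, and 3 were above IL23A. These were IL17D at 14.1 ± 0.721 FPKM, IL8 at 11.3 ± 1.36 and IL10 at 10.9 ± 0.43. The means of IL8 and IL10 lay within the SD of IL23A. Only 14 of the 47 passed the low-value filter (0.5 FPKM or more in 3 or more libraries), and 20 were listed at 0 in all control libraries. IL32, IL23A and LIF together made up 57.5% to 59.4% of the summed FPKM of these 50 ligand genes in PINT shRNA1+LPS, 53.2% to 56.6% in PINT shRNA1, 48.7% to 51.2% in LPS and 49.6% to 50.8% in control.

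LPS against control asks how the genes differ after LPS in cells without the hairpin. IL23A averaged 16.1 ± 1.12 FPKM in LPS and 10.9 ± 1.03 in control, a ratio of 1.48. IL32 averaged 32.6 ± 1.23 FPKM in LPS and 24.7 ± 0.677 in control, a ratio of 1.32, and LIF averaged 17.2 ± 0.72 in LPS and 15.4 ± 1.22 in control, a ratio of 1.11 (SD, n = 3 each). All LPS libraries were above all control libraries for IL32 and IL23A, and 7.22% of the 17214 genes tested had that order. A limma fit of all 12 libraries to log2(FPKM + 0.5) gave differences, as log2 fold change ± SE, of 0.55 ± 0.0829 for IL23A, 0.39 ± 0.0524 for IL32 and 0.15 ± 0.0618 for LIF. By this measure 1.86% of genes lay above IL23A, 3.71% above IL32 and 13.8% above LIF.

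With the hairpin, LPS went with higher levels of all 3 genes. PINT shRNA1+LPS against PINT shRNA1 gave 12.4 ± 0.409 and 8.78 ± 0.78 FPKM for IL23A (0.48 ± 0.0829 on the log2 scale). LIF averaged 13.5 ± 0.314 FPKM in PINT shRNA1+LPS and 11.5 ± 0.392 in PINT shRNA1 (0.23 ± 0.0618). IL32 averaged 47.2 ± 0.323 FPKM in PINT shRNA1+LPS and 42.3 ± 2.92 in PINT shRNA1 (0.16 ± 0.0524), and the log2 fold change was 0.10 without PINT shRNA1 replicate 1, the lowest of its group. The groups did not overlap for any of the 3, an order that 6.08% of tested genes had. Higher levels with LPS and no overlap, in both the hairpin-labelled and the unlabelled pair, held for IL32 and IL23A and for 2% of tested genes. The log2 fold change exceeded that of IL23A in 1.07% of genes, that of LIF in 5.09% and that of IL32 in 9.46%.

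The LPS responses of hairpin-labelled and unlabelled cells can be set against each other as a difference of log2 fold changes. That difference was -0.23 ± 0.0741 for IL32, a smaller response in the hairpin-labelled libraries, from a level without LPS already 1.71 times the control. Differences of larger size, in either direction, were held by 27.2% of tested genes, so that of IL32 was not unusual. The difference was -0.07 ± 0.117 for IL23A and 0.08 ± 0.0873 for LIF, both less than their SE. That of LIF was 0.14 ± 0.0774 without control replicate 3, and that of IL23A -0.14 ± 0.11 without control replicate 1. Across all genes limma called 0.128% in this comparison at an adjusted p under 0.05.

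PINT shRNA1 against control and PINT shRNA1+LPS against LPS ask how libraries labelled with the hairpin differ from those without. In both, IL32 was higher in the hairpin-labelled libraries, while IL23A and LIF were lower. IL32 averaged 42.3 ± 2.92 FPKM in PINT shRNA1 and 24.7 ± 0.677 in control (0.76 ± 0.0524 on the log2 scale), and 47.2 ± 0.323 in PINT shRNA1+LPS and 32.6 ± 1.23 in LPS (0.53 ± 0.0524). IL23A averaged 8.78 ± 0.78 FPKM in PINT shRNA1 and 10.9 ± 1.03 in control (-0.29 ± 0.0829), and 12.4 ± 0.409 in PINT shRNA1+LPS and 16.1 ± 1.12 in LPS (-0.36 ± 0.0829). LIF averaged 11.5 ± 0.392 FPKM in PINT shRNA1 and 15.4 ± 1.22 in control (-0.41 ± 0.0618), and 13.5 ± 0.314 in PINT shRNA1+LPS and 17.2 ± 0.72 in LPS (-0.33 ± 0.0618). For each gene all hairpin-labelled libraries lay on the same side of the unlabelled libraries given the same exposure. Genes higher in this way were 25.6% of those tested without LPS and 27.7% with LPS, and genes lower were 15.8% and 18.1%, so such an order was common. The summed epithelial markers were lower in hairpin-labelled libraries as LIF and IL23A were, and their part in the result was not tested. These comparisons share libraries with those of LPS: the control libraries enter the contrasts of LPS and of PINT shRNA1, and the LPS and PINT shRNA1 libraries are also used again.

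**Figure D2:**
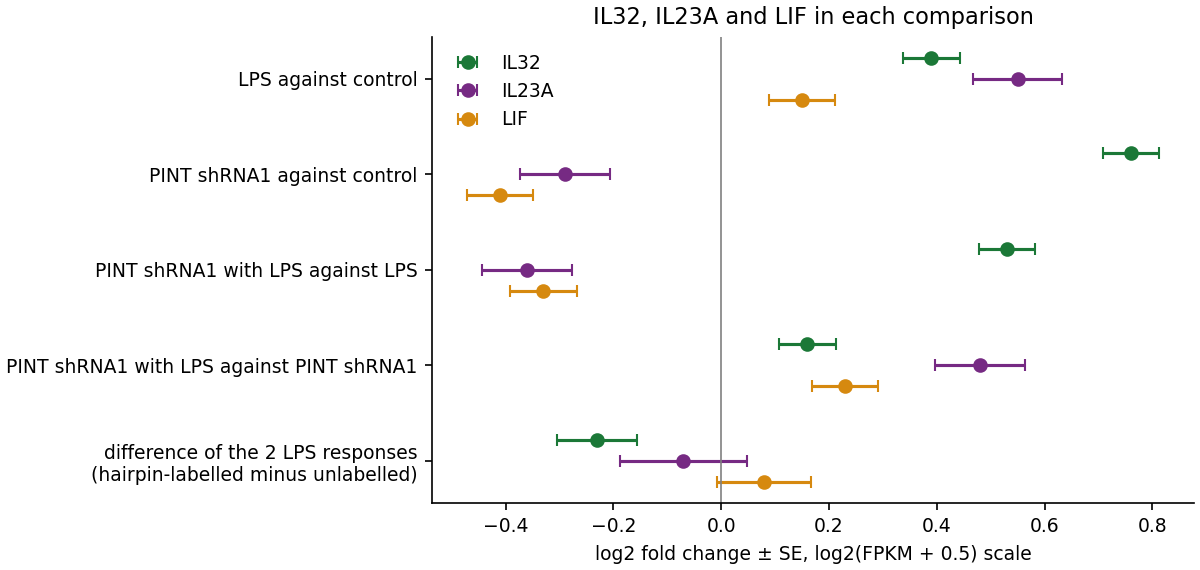
Log2 fold changes ± SE of IL32, IL23A and LIF (horizontal axis, log2(FPKM + 0.5) scale) in the 4 pairwise comparisons and in the difference of the LPS responses. LPS comparisons lie right of 0 for all 3 genes, and hairpin comparisons lie right of 0 for IL32 and left of 0 for IL23A and LIF.

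LIF overlaps antisense RNA genes, and the labels do not say that strand was kept, so reads of the overlapping stretches could be counted to either. RP1-102K2.8 (ENSG00000268812), antisense over the start of LIF in GENCODE 29, averaged 2.03 ± 0.207 FPKM in PINT shRNA1+LPS and 1.53 ± 0.248 in PINT shRNA1, against 2.51 ± 0.654 in LPS and 1.93 ± 0.217 in control. RP1-102K2.6 (ENSG00000232530), the antisense gene at the other end of LIF, stayed at or under a group mean of 0.602 FPKM. Both are well below LIF, at 11.5 to 17.2 FPKM by group mean.

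Pearson correlation of log2(FPKM + 0.5) over the 12 libraries described which genes had the most similar pattern among those averaging at least 1 FPKM. The libraries fall into the 4 groups, so these values mostly reflect group means and have no p. For IL32 the closest were WDR1, an actin-disassembly factor (0.99), the adhesion molecule MPZL2 (0.98), the T-box factor TBX3 (0.98) and the ecto-nucleotidase NT5E (0.98). For IL23A they were the kinase IKBKE (0.95) and the subunit NFKB2 (0.95), both of the NF-kB system, with the peptide-loading factor TAPBP (0.95) and RANGAP1 of nuclear transport (0.95). For LIF they were the simple keratin KRT19 (0.98), the nucleoporin NUP188 (0.97), EHD4 of endocytic traffic (0.97) and the epithelial 14-3-3 protein gene SFN (0.96). NFKB2 averaged 23.6 ± 0.492 FPKM in PINT shRNA1+LPS and 16.7 ± 0.909 in PINT shRNA1, against 36.7 ± 1.38 in LPS and 20.3 ± 1.21 in control, the same order of groups as IL23A. KRT19 averaged 258 ± 3.74 FPKM in PINT shRNA1+LPS and 224 ± 11.9 in PINT shRNA1, against 331 ± 1.53 in LPS and 302 ± 16.2 in control, the same order as LIF. NFKB2 and KRT19 were picked by correlation over these same libraries, so their shared order of groups is no independent result. Among the 3 cytokine genes, IL23A and LIF correlated at 0.80, IL32 and LIF at -0.59, and IL32 and IL23A at -0.14.

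The partner chains of these cytokines were unevenly expressed. IL12B, the obligate partner of IL23A in interleukin-23, was at 0 to 0.102 FPKM over the 12 libraries. The interleukin-23 receptor chain IL23R was listed at 0 in 10 of 12 libraries with a highest value of 0.0114 FPKM, and IL12RB1 was at 0 to 0.133 FPKM. LIFR, the specific receptor chain of LIF, was at 0.0099 to 0.218 FPKM, whereas the shared chain IL6ST was at 38 to 52.2 FPKM. By group, LIFR averaged 0.155 ± 0.0152 FPKM in PINT shRNA1+LPS and 0.163 ± 0.0514 in PINT shRNA1. It averaged 0.025 ± 0.0106 in LPS and 0.0423 ± 0.0388 in control (SD, n = 3). At these low levels LIFR was not tested. Of the binding partners of interleukin-32, ITGAV was at 30.5 to 40.1 FPKM, ITGB3 at 0 to 0.069 and PRTN3 at 0 to 0.104. Thus transcripts of IL12B, IL23R, IL12RB1, LIFR, ITGB3 and PRTN3 were below the low-value filter, while those of IL6ST and ITGAV were abundant.

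**Figure D3:**
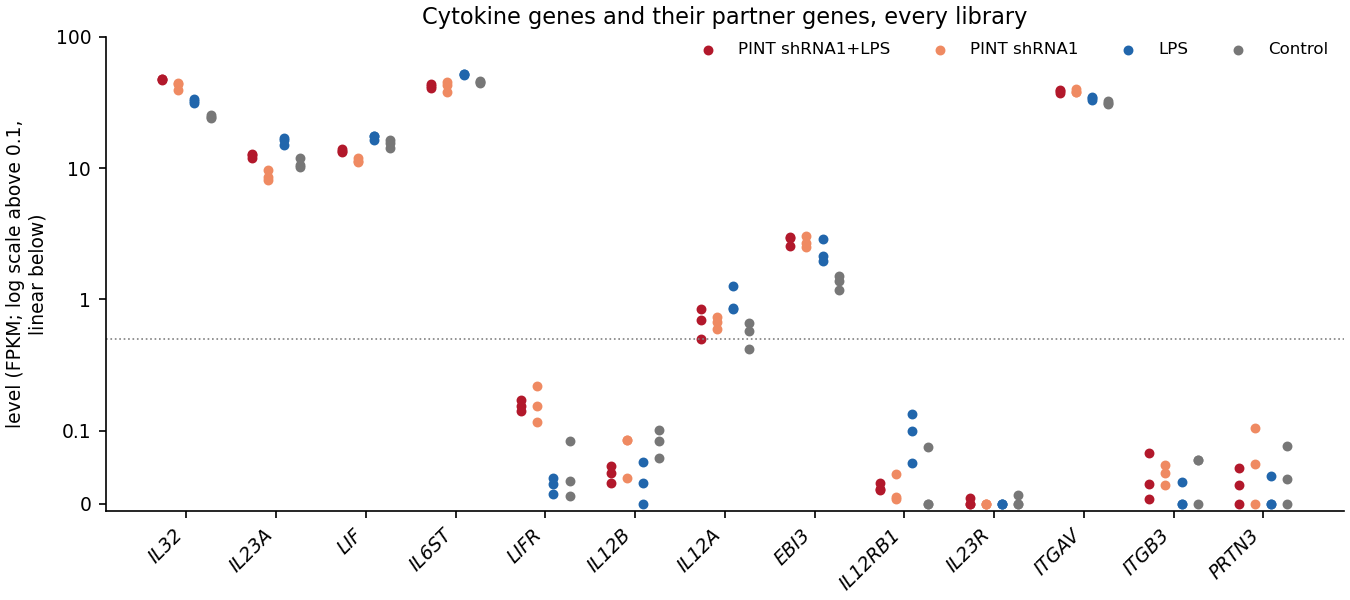
Levels in FPKM of IL32, IL23A and LIF and of their subunit, receptor and binding-partner genes in every library (axis logarithmic above 0.1 and linear below; dotted line, the 0.5 FPKM filter). IL6ST and ITGAV lie at or above 30.5 FPKM, and IL12B, IL12RB1, IL23R, LIFR, ITGB3 and PRTN3 at or below 0.218.

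The remaining genes of these pathways were tested, with p-values adjusted over all 17214 genes. Of 132 listed ligand, receptor, signalling and STAT3 target genes, 72 passed the low-value filter. The lists were chosen with earlier results of these data known, so their shares of calls are not independent of the data. The counts below are of these 72 genes. Between LPS and control limma called 7 of them higher and 1 lower, 11.1% of the 72 against 2.76% of all genes tested, and their median log2 fold change was 0.07 against -0.04 for all genes. In a fit without the hairpin-labelled libraries the count was 4, and the share of all genes called was 0.738%.

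IL17C, IL8, IL36G and EBI3 rose with LPS in cells without the hairpin, at log2 fold changes above the 0.55 of IL23A, a difference between genes that was not tested. IL17C, an epithelial cytokine of mucosal defence, averaged 1.18 ± 0.0817 FPKM in LPS and 0.274 ± 0.0338 in control (1.12 ± 0.11; limma, adjusted p = 0.000282). IL8, the neutrophil chemokine also called CXCL8, averaged 23.9 ± 0.919 FPKM in LPS and 11.3 ± 1.36 in control (1.05 ± 0.111; limma, adjusted p = 0.000458). IL36G, an interleukin-1 family cytokine of epithelia, rose by 1.22 ± 0.19 from a low level (1.47 ± 0.487 FPKM in LPS, 0.34 ± 0.168 in control; limma, adjusted p = 0.00648), and was not called without the hairpin-labelled libraries. Of the 2 tested relatives of IL23A in the interleukin-12 family, EBI3, a subunit of interleukin-27, rose by 0.60 ± 0.129 (limma, adjusted p = 0.035), a call that ended in 9 of 12 fits leaving out 1 library each and without the hairpin-labelled libraries, and IL12A, the p35 subunit of interleukin-12, was at 0.50 ± 0.153 (limma, adjusted p = 0.121). None of the 3 tested relatives of LIF (CLCF1, CNTF and IL11) was called by limma in any comparison, and none had an unadjusted p under 0.05.

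Between PINT shRNA1+LPS and PINT shRNA1 limma called none of the 72 genes (7 at an unadjusted p under 0.05), with 0.186% of all genes called. In the difference of the LPS responses it also called none (12 at an unadjusted p under 0.05). The differences of IL8 and IL17C were -0.88 ± 0.156 and -0.82 ± 0.156 (limma, adjusted p = 0.0863 and 0.124). IL8 and IL17C were named for their calls between LPS and control, a choice that favours a negative difference. The difference of IL23A was -0.07 ± 0.117. Among other tested ligands it was -0.06 ± 0.0887 for IL10, -0.05 ± 0.427 for CNTF and 0.09 ± 0.158 for CLCF1. It was -0.80 ± 0.269 for IL36G, -0.57 ± 0.183 for EBI3 and -0.49 ± 0.217 for IL12A. A small difference was thus not particular to IL23A, and the contrast between genes was not tested.

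**Figure D4:**
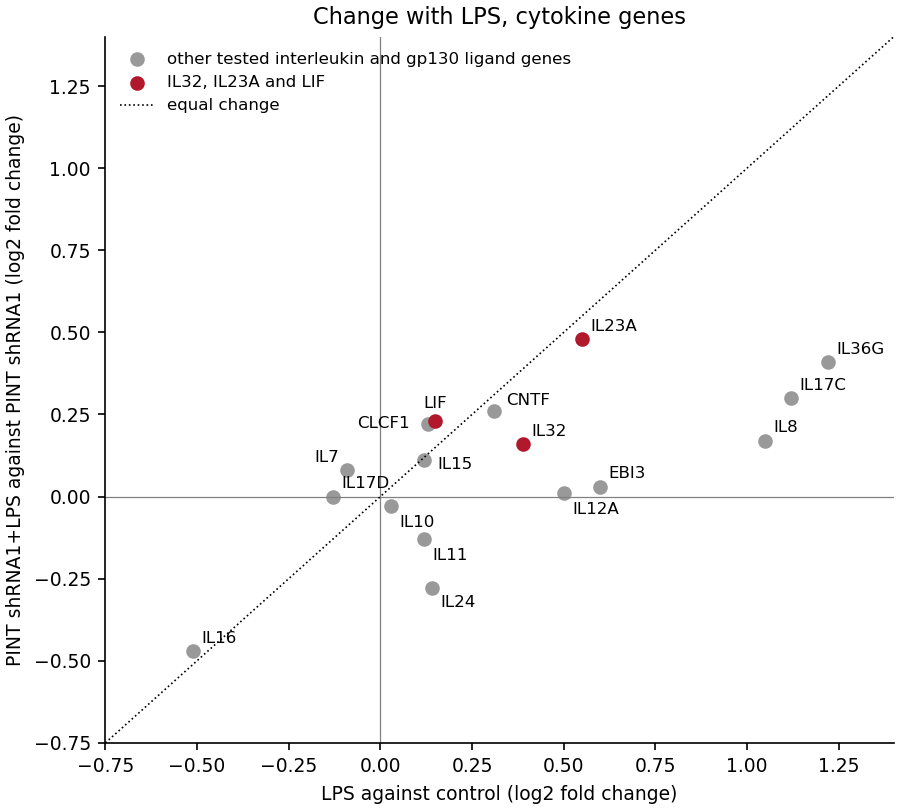
Log2 fold change with LPS in cells without the hairpin (horizontal axis) and with it (vertical axis) for IL32, IL23A, LIF and the 14 other ligand genes that passed the filter; the dotted line marks equal change. IL23A (0.55 and 0.48) lies near the line and IL8 (1.05 and 0.17) far below it.

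Under LPS, limma called 5 of 14 tested ligand genes between hairpin-labelled and unlabelled libraries, 35.7% against 29.2% of all genes. IL17C, IL8, IL36G and IL17D were lower, as IL23A and LIF were in direction, and EBI3 was at 0.24 ± 0.129 (adjusted p = 0.186). IL17C averaged 0.322 ± 0.0507 FPKM in PINT shRNA1+LPS and 1.18 ± 0.0817 in LPS (-1.03 ± 0.11; limma, adjusted p = 7.33e-05), and IL8 averaged 13.5 ± 1.43 and 23.9 ± 0.919 in those groups (-0.80 ± 0.111; limma, adjusted p = 0.000391). IL36G was at -0.69 ± 0.19 and IL17D, a member of the interleukin-17 family, at -0.55 ± 0.0889 (limma, adjusted p = 0.02 and 0.00102), and the call of IL36G ended in 3 of 12 fits leaving out 1 library each and with no filter. IL10, the anti-inflammatory interleukin, was the 1 ligand called higher, as IL32 was in direction, at 13.2 ± 0.234 FPKM in PINT shRNA1+LPS and 11.1 ± 0.263 in LPS (0.24 ± 0.0628; limma, adjusted p = 0.0157), a call that ended, at 0.22, without PINT shRNA1+LPS replicate 3. Without LPS, 4 of the 14 were called, 28.6% against 27.3% of all genes. Limma called EBI3 (0.82 ± 0.129), IL10 (0.30 ± 0.0628) and IL24 (0.59 ± 0.157) higher in PINT shRNA1 than in control, with a largest adjusted p of 0.0177 (limma), and IL17D lower (-0.69 ± 0.0889; adjusted p = 0.000294). The call of IL24 ended without control replicate 3 or without PINT shRNA1 replicate 2 or 3, at 0.49 to 0.56, and without the groups given LPS.

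Receptor genes were called between hairpin-labelled and unlabelled libraries at about the share of all genes in the fit of all 12 libraries. Of 25 tested receptors 6 were called higher and none lower in PINT shRNA1 than in control, 24% against 27.3% of all genes. The count was 3 without control replicate 2, without control replicate 3 and without PINT shRNA1 replicate 1. That was 12%, against 23.2%, 22.6% and 20.7% of all genes in those fits. With all 12 libraries, 5 receptors were called higher and 3 lower in PINT shRNA1+LPS than in LPS, 32% against 29.2% of all genes. IL6ST, the signalling chain for LIF, averaged 42.1 ± 1.41 FPKM in PINT shRNA1+LPS and 51.8 ± 0.574 in LPS (-0.30 ± 0.0573; limma, adjusted p = 0.00298) and was at -0.11 ± 0.0573 without LPS (adjusted p = 0.196). IL2RG, the common gamma chain, rose by 0.80 ± 0.126 without LPS and 0.92 ± 0.126 with it, and IL3RA, the interleukin-3 receptor chain, by 0.87 ± 0.145 and 0.92 ± 0.145 (limma, largest adjusted p = 0.0014). IL27RA, a receptor chain for interleukin-27, was higher by 0.27 ± 0.0823 and 0.42 ± 0.0823 (limma, adjusted p = 0.0333 and 0.00312), the first call ending in 4 of 12 fits leaving out 1 library each, with median scaling and with no filter. IL11RA, the interleukin-11 receptor, was higher by 0.86 ± 0.178 and 0.90 ± 0.178 (adjusted p = 0.00505 and 0.00336). With LPS alone, IL18R1, a receptor chain for interleukin-18, rose by 0.77 ± 0.0955 and IL17RD, an interleukin-17 receptor family member, fell by 0.30 on the log2 scale (limma, adjusted p = 0.00143 and 0.00379), and neither was called without the hairpin-labelled libraries. ITGAV rose by 0.29 ± 0.0429 in PINT shRNA1 against control and by 0.18 ± 0.0429 in PINT shRNA1+LPS against LPS (limma, adjusted p = 0.000633 and 0.0105), in the direction of IL32, and the second of these calls ended with median scaling.

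Of the JAK-STAT-SOCS list, 22 genes were tested. Whether their differences relate to LIF or interleukin-23 was not tested. Between LPS and control STAT5A was the 1 of 22 called, 4.55% against 2.76% of all genes, at 8.48 ± 0.833 FPKM in LPS and 3.61 ± 0.229 in control (1.12 ± 0.115; limma, adjusted p = 0.000376). The count was 2 with median scaling, with quantile normalization, without control replicate 1 and without control replicate 2. That was 9.09%, against 3.23%, 2.48%, 1.95% and 1.71% of all genes in those fits. SOCS3, the feedback gene of STAT3, was at -0.17 ± 0.0966 (limma, adjusted p = 0.413) and STAT3 at 0.13 ± 0.0819 (adjusted p = 0.48). In PINT shRNA1 against control 7 of 22 were called higher and none lower, 31.8% against 27.3% of all genes. These included the kinase JAK1 (0.20 ± 0.0374), STAT6 (0.50 ± 0.057), STAT3 (0.25 ± 0.0819), the STAT inhibitor PIAS3 (0.45 ± 0.0768) and the phosphatase PTPN11 (0.32 ± 0.037), with a largest adjusted p of 0.0421 (limma), that of STAT3, whose call ended in 7 of 12 fits leaving out 1 library each, with median scaling, quantile normalization, no filter and no intensity trend, and with the replicate block. In PINT shRNA1+LPS against LPS 9 were called higher and 4 lower, 59.1% against 29.2%, but 8 of 22 were called without LPS replicate 3 and without PINT shRNA1+LPS replicate 2 or 3. That was 36.4%, against 25.6%, 22.1% and 22.6% of all genes in those fits, and median scaling ended the calls of JAK1, STAT3, STAT6 and SOCS5. SOCS2, a feedback inhibitor of cytokine receptors, averaged 1.15 ± 0.0677 FPKM in PINT shRNA1+LPS and 4.17 ± 0.781 in LPS (-1.49 ± 0.264; limma, adjusted p = 0.00179), and STAT5A was at 4.76 ± 0.883 and 8.48 ± 0.833 in those groups (-0.78 ± 0.115; adjusted p = 0.000593). The kinases JAK2 and TYK2 of the interleukin-23 receptor were at 1.77 to 2.53 and 10.9 to 16.9 FPKM over the 12 libraries. JAK2 was not called by limma in any comparison, and TYK2 was called only in PINT shRNA1+LPS against LPS (0.33 ± 0.0928, adjusted p = 0.0211), a call that ended in 3 of 12 fits leaving out 1 library each and in a fit of only the groups compared.

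Of 10 tested STAT3 target genes, 1 was called between LPS and control, 10% against 2.76% of all genes. It was BCL3, an NF-kB cofactor, at 3.65 ± 0.73 FPKM in LPS and 1.38 ± 0.131 in control (1.13 ± 0.142; limma, adjusted p = 0.00155). The count was 2 with median scaling, with the filter of 1 FPKM and with no filter. That was 20%, 20% and 18.2% of those tested, against 3.23%, 3.39% and 0.917% of all genes. In PINT shRNA1 against control 3 were called higher and 1 lower, 40% against 27.3% of all genes. The protease inhibitor TIMP1 (0.55 ± 0.0811), the transcription factor CEBPD (0.53 ± 0.111) and the survival factor MCL1 (0.11 ± 0.0317) were the higher ones and CEBPB (-0.33 ± 0.0753) the lower, with a largest adjusted p of 0.0248 (limma). The call of MCL1 ended with median scaling, quantile normalization and no intensity trend, in a fit of only the groups compared and in 5 of 12 fits leaving out 1 library each. In PINT shRNA1+LPS against LPS, TIMP1 (0.69 ± 0.0811) and CEBPD (0.51 ± 0.111) were the 2 called, both higher (limma, adjusted p = 0.000143 and 0.00589), 20% against 29.2% of all genes. With median scaling 3 lower calls were added, giving 50% against 28.3% of all genes. Over all 72 listed genes, 20 were higher and 2 lower in PINT shRNA1 than in control (30.6%), and the split was 15 and 5 with median scaling and 16 and 5 with quantile normalization. In PINT shRNA1+LPS against LPS 18 were higher and 11 lower (40.3%), against 12 and 15 with median scaling and 15 and 12 with quantile normalization.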

How the data were processed

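RNA of SW480 cells was sequenced on an Illumina HiSeq instrument, per the labels' protocols. The authors deposited FPKM values for Ensembl genes. Per the submitters' processing notes, GRCh37/hg19, StringTie 1.3.4d, HISAT2 2.1.0 and fastp were used, in roles not stated. Columns were matched to groups by RNA number, and 6 other columns were not used. Absolute depth cannot be recovered from FPKM, so precision is given as the SD or SE between libraries.

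The filter of 0.5 FPKM or more in 3 or more libraries kept 17214 of 57905 genes. A linear model with a mean for each of the 4 groups was fitted to log2(FPKM + 0.5) by limma 3.58.1 (R 4.3.3), with variances moderated along an intensity trend. Contrasts were two-sided, p-values were adjusted by Benjamini-Hochberg across the genes tested, and a call means an adjusted p under 0.05. This scale understates changes of low genes. The procedure was tested on simulated data.

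IL32, IL23A and LIF, and the gene lists, were chosen with earlier results of these data known. Named besides them are their direct partners, up to 4 called genes with the smallest p of each list and comparison, and the 4 genes most correlated with each. IL12A, CLCF1, CNTF, IL11 and SOCS5 were named after their values were seen. So were ligand, receptor, signalling and STAT3 target genes repeated in a second comparison. Alternatives were 3 scalings, pseudocounts of 0.1 and 1, no filter and 1 FPKM, no trend, robust moderation, a replicate block, fits of only the groups compared and leaving out each library. Promoter windows are from RefSeq.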

Additional observations from a re-analysis of the deposited data

How the results depend on the processing

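No fold change of IL32, IL23A or LIF reversed under the alternatives run. With median scaling, IL32 was at 0.44 in LPS against control and 0.48 in PINT shRNA1 with LPS against LPS, and LIF at -0.38 in PINT shRNA1 with LPS against LPS and 0.27 in PINT shRNA1 with LPS against PINT shRNA1, against 0.39, 0.53, -0.33 and 0.23 as reported. Leaving out 1 library at a time gave 0.09 to 0.20 for LIF and 0.50 to 0.62 for IL23A in LPS against control, and -0.14 to 0.00 for IL23A and 0.03 to 0.14 for LIF in the difference of the LPS responses. Listed genes called numbered 4 in LPS against control when only those groups were fitted, a setting with fewer libraries and 0.738% of all genes called. With no intensity trend, 1 (IL17C) was called in the difference of the LPS responses, where 0.128% of all genes were called. Of 59 calls of listed genes 37 held in every alternative run and none reversed.

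The RNA numbers did not pair the libraries: deviations from group means correlated at -0.05 to 0.06 between same-numbered libraries. With the replicate block, the listed genes called numbered 8, 19 and 28 in the first 3 comparisons, against 8, 22 and 29 without it. Depth in reads is unknown, so counting error for low genes such as IL23R or IL12B cannot be given.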
